A study of Mus musculus with 24 samples.

Results

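The constitutive proteasome genes of the mouse left ventricle were taken from the deposited table by their symbols, as every symbol beginning with Psma, Psmb, Psmc or Psmd followed by a number, without the 3 immunoproteasome genes Psmb8, Psmb9 and Psmb10. This gave 36 of the 14912 genes of the table. They are the 7 genes of the α ring and the 7 genes of the β ring of the 20S core, the 6 ATPases and 3 further subunits of the base of the 19S regulatory particle, the 8 genes of its lid, 3 chaperones that help to assemble the base (Psmd5, Psmd9 and Psmd10) and 2 core subunits of restricted tissues (Psma8 and Psmb11). RNA was measured in left ventricles of wild-type (WT) male C57BL/6J mice, the sex and strain being as the study's methods give them. The ANG II group of 12 samples received ANG II, a peptide hormone that raises blood pressure, at 1500 ng/kg/min for 7 days from an osmotic mini-pump under the skin. The control group of 12 samples received saline in the same way for 7 days. The study had 16 mice in each group, and 4 of each were not analysed here. The labels number the samples without naming animals. The deposited values had been adjusted in a way that used the groups, as described below. The p-values therefore measure the spread left between these samples after that adjustment, not the full spread between animals. The labels give the tissue as left ventricle, although their extraction protocol speaks of another cell source.

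The 26S proteasome is the protease that breaks down proteins marked with chains of ubiquitin. Its 20S core is a barrel in which the outer α rings form the gate and the inner β rings carry the proteolytic sites, and the 19S particle on its end binds ubiquitin chains, removes them, unfolds the substrate with its ring of ATPases and feeds it into the barrel. In heart muscle, where contractile proteins are constantly replaced, the proteasome is a main route of protein turnover, and Nfe2l1 (also called Nrf1) is the transcription factor best known for raising the constitutive genes together when proteasome capacity is short. Immune signals bring in the catalytic subunits Psmb8, Psmb9 and Psmb10 in place of Psmb5, Psmb6 and Psmb7.

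Expression was given by the authors as FPKM, a fragment count per unit of transcript length and of library size, so that levels of different genes can be compared per length. The deposited values had been adjusted further, since 2741 values of the table (0.766%) were negative and exact ties split each group of samples into 4 sets of consecutive numbers, 1 to 3, 4 to 6, 7 to 9 and then 10 to 12. None of the proteasome genes had a negative value. Depth was not given for any sample, and the sums of all values were 482319 to 567727 in control and 460715 to 515185 in ANG II samples. The 7 cardiomyocyte markers summed to 40690 to 50690 FPKM in control samples, as the tissue label says, and to 30770 to 43950 FPKM in ANG II samples, with 4 of the 7 lower. Of the markers of other cells, 7 of 7 for macrophages, 5 of 5 for red blood cells, 5 of 5 for proliferating cells and 5 of 7 for fibroblasts were higher in ANG II. Of all genes tested, 20.9% were higher and 12.6% lower by the same rule (limma, adjusted p under 0.05). Also higher were 1 of 6 endothelial, 2 of 6 smooth muscle and pericyte, 1 of 5 T cell, 1 of 4 neutrophil and 1 of 2 skeletal muscle markers. Lower were 1 of 6 endothelial and 1 of 3 B cell markers, and no atrial or adipocyte marker was called. Macrophage markers summed to 131.4 to 283.4 FPKM in control and to 186.4 to 537.4 FPKM in ANG II, and red blood cell markers to 56.23 to 2949 FPKM and to 779.2 to 6443 FPKM. In such bulk RNA, fewer cells of a type and less RNA per cell cannot be told apart, and the part of these shifts in the proteasome results was not tested.

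In the main test given below, every gene called lower in ANG II belonged to the β ring. The promoters of 3 β ring genes are therefore shown with that of Psma3, the α ring gene called higher. The 3 are the lower genes whose window holds 1 of the motifs marked here. The window of Psmb4 held neither and is not shown, and the table used here held none for Psmb2. Each is a RefSeq window (assembly GRCm38.p6) of 250 bases before and 50 after the transcription start, written 5′ to 3′ on the strand of the gene. Capitals mark the core of the antioxidant response element, TGACNNNGC, which Nfe2l1 and Nfe2l2 can bind, and the CCAAT box, CCAAT, on either strand, so that ATTGG is the box read from the other strand. The windows are chr14:54617946-54618245 (- strand) for Psmb5, chr11:70525107-70525406 (+ strand) for Psmb6, chr11:97703184-97703483 (+ strand) for Psmb3 and chr12:70974373-70974672 (+ strand) for Psma3.
Psmb5: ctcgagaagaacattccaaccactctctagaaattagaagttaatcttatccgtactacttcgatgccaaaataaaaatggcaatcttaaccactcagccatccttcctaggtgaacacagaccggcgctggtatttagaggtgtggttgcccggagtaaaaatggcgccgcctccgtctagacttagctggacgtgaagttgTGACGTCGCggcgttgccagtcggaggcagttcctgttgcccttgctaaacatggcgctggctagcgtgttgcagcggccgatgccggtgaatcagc
Psmb6: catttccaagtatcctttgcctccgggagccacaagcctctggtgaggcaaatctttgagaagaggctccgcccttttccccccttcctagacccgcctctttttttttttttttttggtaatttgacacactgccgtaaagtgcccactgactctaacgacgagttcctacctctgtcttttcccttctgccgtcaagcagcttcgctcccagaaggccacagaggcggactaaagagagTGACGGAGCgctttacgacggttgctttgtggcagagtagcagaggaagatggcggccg
Psmb3: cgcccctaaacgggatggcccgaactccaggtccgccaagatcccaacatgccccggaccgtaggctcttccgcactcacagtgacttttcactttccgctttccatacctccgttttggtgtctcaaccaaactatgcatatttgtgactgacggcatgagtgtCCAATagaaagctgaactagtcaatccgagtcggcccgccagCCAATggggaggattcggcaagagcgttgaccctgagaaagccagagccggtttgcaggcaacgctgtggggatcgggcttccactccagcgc
Psma3: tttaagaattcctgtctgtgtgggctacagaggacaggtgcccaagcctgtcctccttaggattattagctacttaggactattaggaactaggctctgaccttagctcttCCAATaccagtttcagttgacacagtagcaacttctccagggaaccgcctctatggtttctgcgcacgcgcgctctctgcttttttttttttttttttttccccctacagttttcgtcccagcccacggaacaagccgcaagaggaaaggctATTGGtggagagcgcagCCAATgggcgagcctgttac
The element core stood 47 bases before the start in Psmb5 and 9 bases before it in Psmb6, the catalytic subunits of the chymotrypsin-like and caspase-like sites. Psmb3, a structural β subunit, held 2 CCAAT boxes on the gene strand and no element core. Psma3 held 3 CCAAT boxes, 1 of them read from the other strand.

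The RefSeq table held windows for 29 of the 36 genes, with 31 windows in all. The antioxidant response element core was in 16.1% of these windows and in 12.4% of all 32851 windows of the table, both strands searched. Psmb5, Psmb6, Psmc6, Psmd9 and Psmd12 were the genes that held it. The CCAAT box was in 38.7% of the proteasome windows against 37.4% of all windows on either strand, but in 38.7% against 21.1% on the gene strand, 12 of 31 in both cases. The GC box GGGCGG was in 58.1% against 35.7%. The FoxO motif GTAAACA was in 0 of 31 windows against 3.65%, the E-box CACGTG in 6.45% against 7.15% and the TATA box TATAAA in 9.68% against 13.6%, all on both strands. Matches of different motifs overlapped in 1 proteasome window. Of the 5 genes lower in ANG II below, 4 had a window and 2 of these held the element core (Psmb5 and Psmb6). Of the 7 higher genes, 6 had a window and 1 of these held it (Psmc6).

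Between ANG II and control left ventricles, 5 of the 7 β ring genes were lower in ANG II, by 8.5% to 16% of the mean FPKM. With set as a term in the model, 3 of the 5 (Psmb2, Psmb3 and Psmb6) were called lower. The α ring, the 19S base and the lid held 6 genes that were slightly higher and none that was lower, although median-ratio scaling of the samples left 1 of them higher and made 2 ATPases lower. The Wilcoxon rank-sum test also called 2 ATPases lower, beside 5 genes of the β ring, and quantile normalization gave 7 lower genes among the 36. All 36 genes passed the filter of a mean of 0.1 FPKM. At a Benjamini-Hochberg adjusted p under 0.05 in limma on log2(FPKM + 1), 12 of the 36 genes (33.3%) differed, against 33.5% of the 14026 genes tested, so that the share was that of the whole table. Of the 12, 5 were lower, where 12.6% of all genes were lower, and 7 were higher, where 20.9% were. All 5 lower genes were among the 7 of the β ring, whose median log2 fold change (ANG II minus control) was -0.18. The 7 higher genes were 1 of 7 in the α ring, 2 of 6 ATPases, 1 of 3 other base subunits, 2 of 8 in the lid and 1 of the 2 genes of restricted tissues. The median log2 fold change was 0.03 over the 36 genes and 0.055 over all genes tested. None of the 36 passed an absolute log2 fold change of 0.5 as well, at an adjusted or an unadjusted p under 0.05, whereas 5.92% of all genes did at the adjusted p. The differences of single genes were small, between -0.26 and 0.21 on the log2 scale, and the 2 groups overlapped in all 36 genes.

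**Figure D1:**
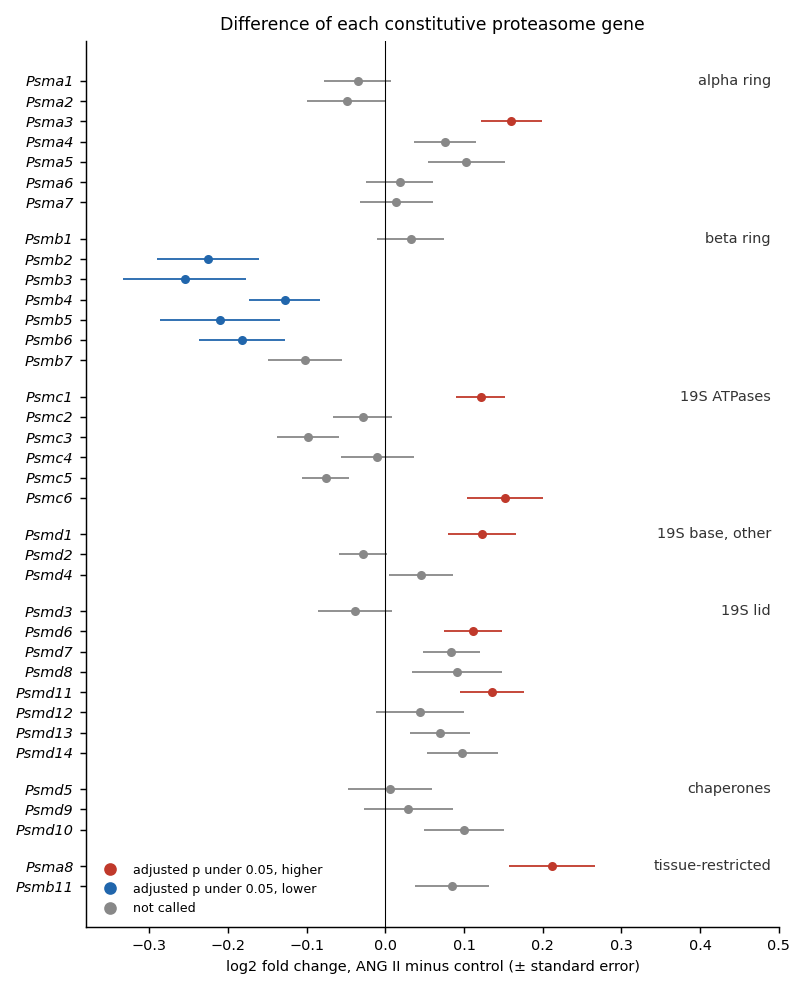
Log2 fold change of each of the 36 genes, ANG II minus control, on the log2(FPKM + 1) scale (horizontal axis), grouped by place in the proteasome; bars are standard errors and colours give the call at an adjusted p under 0.05 (12 samples a group). The 5 genes called lower all lie in the β ring, between -0.26 and -0.13, and the 7 called higher are spread over the other groups between 0.11 and 0.21.

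Psmb2 and Psmb3, structural subunits of the β ring, had the largest decreases. Psmb3 was at 90.46 to 139.6 FPKM (median 106.4) in control and at 67.69 to 122.7 FPKM (median 93.80) in ANG II samples. Psmb2 was at 93.59 to 133.8 FPKM (median 112.9) in control and at 73.31 to 120.9 FPKM (median 96.37) in ANG II samples. ANG II sample 12 was lowest and ANG II sample 7 highest of its group in both genes, control sample 3 was the highest of all, and 11 of 12 ANG II samples for Psmb3 and 10 of 12 for Psmb2 were below the control median. The log2 fold change was -0.26 ± 0.08 (SE) for Psmb3 (limma, adjusted p = 0.0143) and -0.22 ± 0.06 for Psmb2 (adjusted p = 0.0102). The mean FPKM fell by 16% and 14.2%.

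Of the 3 constitutive proteolytic subunits, Psmb5 and Psmb6 were lower in ANG II and Psmb7 was not called. Psmb5, which carries the chymotrypsin-like site targeted by proteasome inhibitor drugs, was at 64.96 to 99.49 FPKM (median 81.60) in control and at 50.39 to 94.65 FPKM (median 71.40) in ANG II samples. Of the ANG II samples, 11 were below the control median and 5 below the lowest control sample. Its log2 fold change was -0.21 ± 0.08 (limma, adjusted p = 0.0349). Psmb6, the caspase-like subunit, was at 92.87 to 133.4 FPKM (median 109.3) in control and at 83.11 to 117.5 FPKM (median 96.99) in ANG II samples, a log2 fold change of -0.18 ± 0.05 (adjusted p = 0.0128). Psmb7, the trypsin-like subunit, had medians of 109.9 FPKM in control (96.52 to 127.8) and 106.0 FPKM in ANG II (87.58 to 117.4). Its 11 ANG II samples below the control median were as many as for Psmb5 and Psmb6, but its log2 fold change of -0.10 ± 0.05 did not pass the test (adjusted p = 0.0935).

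The remaining β ring genes differed from each other. Psmb4 was at 108.6 to 144.2 FPKM (median 123.0) in control and at 100.3 to 132.3 FPKM (median 111.5) in ANG II samples, a log2 fold change of -0.13 ± 0.05 (limma, adjusted p = 0.0336). Psmb1 was the β ring gene that did not lie lower, with medians of 91.47 FPKM in control (84.75 to 112.0) and 94.22 FPKM in ANG II samples (88.62 to 107.7). Its log2 fold change was 0.03 ± 0.04 (adjusted p = 0.579). With set as a term, neither Psmb4 (limma, adjusted p = 0.0517) nor Psmb5 (adjusted p = 0.0548) was called. The differences before the authors' adjustment, described below, did not give a call either (adjusted p = 0.0922 and 0.0847). The calls of both also depended on single samples, since leaving out 1 of 7 samples for Psmb4 and 1 of 8 for Psmb5 ended them. For both genes these included ANG II samples 1, 8 and 12 and control samples 3, 6 and 10, with ANG II sample 3 for Psmb4 and ANG II sample 6 and control sample 11 for Psmb5. The highest adjusted p was then 0.0634 for Psmb4 and 0.0630 for Psmb5, and Psmb2, Psmb3 and Psmb6 were called in all 24 such fits.

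**Figure D2:**
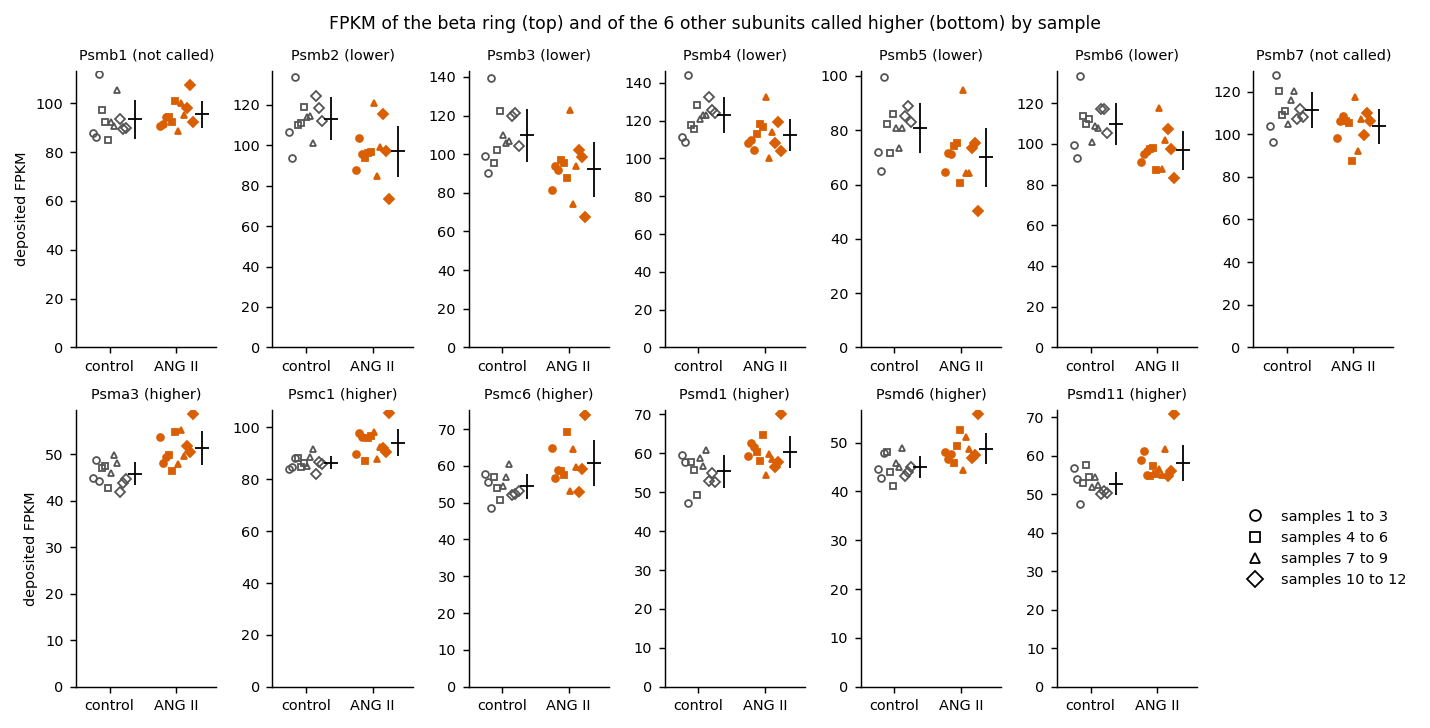
FPKM as deposited (vertical axis, from 0) of the 7 β ring genes (top) and of the 6 higher genes outside the restricted tissues (bottom) in 12 control samples (open grey) and 12 ANG II samples (orange); shapes give the 4 sets and black marks the mean with its SD. The groups overlap in every panel, while in Psma3, Psmc1 and Psmd11 all 12 ANG II samples are above the control median.

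Of the α ring, which gates the core, Psma3 was the gene that was called. It was at 41.98 to 49.92 FPKM (median 45.40) in control and at 46.36 to 58.70 FPKM (median 50.13) in ANG II samples. All 12 ANG II samples were above the control median and 6 were above the highest control sample. The log2 fold change was 0.16 ± 0.04 (limma, adjusted p = 0.0028), and the call held in each of the 24 fits without 1 sample. Psma5 had the next largest difference, from a median of 35.28 FPKM (31.17 to 42.69) to 37.57 FPKM (33.83 to 43.41), and was not called (log2 fold change 0.10 ± 0.05, adjusted p = 0.102). Psma7 differed least, with medians of 90.79 and 89.84 FPKM (adjusted p = 0.835), and Psma2 had the lowest value, -0.05 ± 0.05 (adjusted p = 0.467). The log2 fold changes of Psma1, Psma4 and Psma6 were -0.04, 0.08 and 0.02, and none was called.

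Among the 6 ATPases of the 19S base, which unfold the substrate, Psmc1 and Psmc6 were higher in ANG II. Psmc1 was at 82.15 to 91.75 FPKM (median 86.26) in control and at 87.02 to 105.6 FPKM (median 94.03) in ANG II samples. It varied little within the groups, and 8 of 12 ANG II samples were above the highest control sample. Its log2 fold change was 0.12 ± 0.03 (limma, adjusted p = 0.00408). Psmc6 was at 48.64 to 60.56 FPKM (median 54.30) in control and at 52.92 to 73.92 FPKM (median 58.94) in ANG II samples, a log2 fold change of 0.15 ± 0.05 (adjusted p = 0.0188). Psmc3 and Psmc5 lay lower in 11 of 12 ANG II samples than the control median and just missed the call. Their log2 fold changes were -0.10 ± 0.04 (adjusted p = 0.0559) and -0.08 ± 0.03 (adjusted p = 0.0526). Psmc4 differed least, -0.01 ± 0.05 (adjusted p = 0.881), and Psmc2 was at -0.03 ± 0.04 (adjusted p = 0.57). Median-ratio scaling of the samples ended the call of Psmc1 and Psmc6 and made calls of Psmc3 and Psmc5.

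The 3 other subunits of the base are the scaffolds Psmd1 and Psmd2 and the ubiquitin receptor Psmd4. Psmd1 was at 47.24 to 60.80 FPKM (median 56.24) in control and at 54.41 to 70.03 FPKM (median 59.59) in ANG II samples. With 11 of 12 ANG II samples above the control median, the log2 fold change was 0.12 ± 0.04 (limma, adjusted p = 0.0313), a call lost without ANG II sample 6 or 12 or control sample 3 or 6. It was also lost with set as a term (adjusted p = 0.0533), on the differences before the adjustment (adjusted p = 0.0598), with median-ratio scaling (adjusted p = 0.212) and with quantile normalization (adjusted p = 0.139), so that Psmd1 kept its call in 5 of 10 settings. Psmd2, with medians of 101.7 and 101.5 FPKM, had a log2 fold change of -0.03 ± 0.03 (adjusted p = 0.488). Psmd4, at medians of 74.39 and 73.87 FPKM, had 0.05 ± 0.04 (adjusted p = 0.396).

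The lid removes the ubiquitin chain, by the protease subunit Psmd14, before the substrate enters. Psmd11, a scaffold of the lid, was at 47.42 to 57.66 FPKM (median 52.70) in control and at 54.81 to 70.77 FPKM (median 56.29) in ANG II samples. All 12 ANG II samples were above the control median, and the log2 fold change was 0.13 ± 0.04 (limma, adjusted p = 0.0134). Psmd6 was at 41.04 to 48.89 FPKM (median 44.72) in control and at 44.46 to 55.93 FPKM (median 47.90) in ANG II samples, a log2 fold change of 0.11 ± 0.04 (adjusted p = 0.0221). Psmd3 was the lid gene with a negative value, -0.04 ± 0.05 (adjusted p = 0.547), at medians of 66.39 and 65.32 FPKM. Psmd7, Psmd8, Psmd12, Psmd13 and Psmd14 had log2 fold changes between 0.04 and 0.10 and adjusted p of 0.0729 to 0.564. The median of the lid was 0.09.

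The chaperones Psmd5, Psmd9 and Psmd10 are not part of the finished particle and were the lowest of the genes expressed throughout the heart. Psmd10 was at 3.924 to 5.342 FPKM (median 4.654) in control and at 4.392 to 5.952 FPKM (median 4.895) in ANG II samples, a log2 fold change of 0.10 ± 0.05 (limma, adjusted p = 0.125). Psmd5 had medians of 9.490 and 9.800 FPKM (0.01 ± 0.05, adjusted p = 0.945) and Psmd9 of 8.458 and 8.477 FPKM (0.03 ± 0.06, adjusted p = 0.718). None of the 3 was called by limma, none had an unadjusted p under 0.05 and none was called by the Wilcoxon rank-sum test.

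The symbol rule also took in 2 genes whose products belong to other tissues, and both were under 1 FPKM in every sample. Psma8, an α subunit of the testis, was at 0.2228 to 0.6713 FPKM (median 0.3104) in control and at 0.3772 to 0.7818 FPKM (median 0.6210) in ANG II samples. All 12 ANG II samples were above the control median. The log2 fold change was 0.21 ± 0.06 (limma, adjusted p = 0.00492), which at this level rests on the 1 FPKM added before the logarithm, since the mean FPKM rose by 54.6%. Without samples 4 to 6 of both groups it was 0.14 and not called (adjusted p = 0.124). Psmb11, the β subunit of the thymus cortex, had medians of 0.2424 and 0.3510 FPKM and was not called (adjusted p = 0.165). Psmb11 lies next to Psmb5 on chromosome 14, at 54621433 to 54629556 against 54614119 to 54618022 (GENCODE vM21, GRCm38.p6).

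The direction of the β ring was then compared between the 4 sets of samples, which the authors' adjustment treated separately. Psmb2, Psmb3, Psmb4, Psmb5, Psmb6 and Psmb7 were each lower in ANG II in all 4 sets, where 12.8% of all genes were lower in all 4. The median log2 fold change of the β ring was -0.16, -0.19, -0.10 and -0.24 in samples 1 to 3, 4 to 6, 7 to 9 and 10 to 12. Psmb3 had -0.28, -0.18, -0.18 and -0.38 in these sets and Psmb5 -0.16, -0.19, -0.10 and -0.39. Of all 36 genes, 8 (22.2%) were lower in all 4 sets and 9 (25%) higher in all 4, the latter against 21.8% of all genes. Psma3, Psmc1, Psmc6, Psmd6 and Psmd11 were among the 9, while Psmd1 was at -0.03 in samples 7 to 9. A difference of the groups that varied between sets (limma F test of the interaction, adjusted p under 0.05) was found for none of the 36 genes, 1 of which had an unadjusted p under 0.05, and for 7.49% of all genes. Under the model used for the recovery described below, the adjustment added 1 group difference per gene back to every set. The deposited differences of the 4 sets are then not independent, which limits both the count of directions and the interaction test. Before the adjustment Psmd1 was at 0.07 FPKM in samples 7 to 9, against -1.22 FPKM as deposited.

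**Figure D3:**
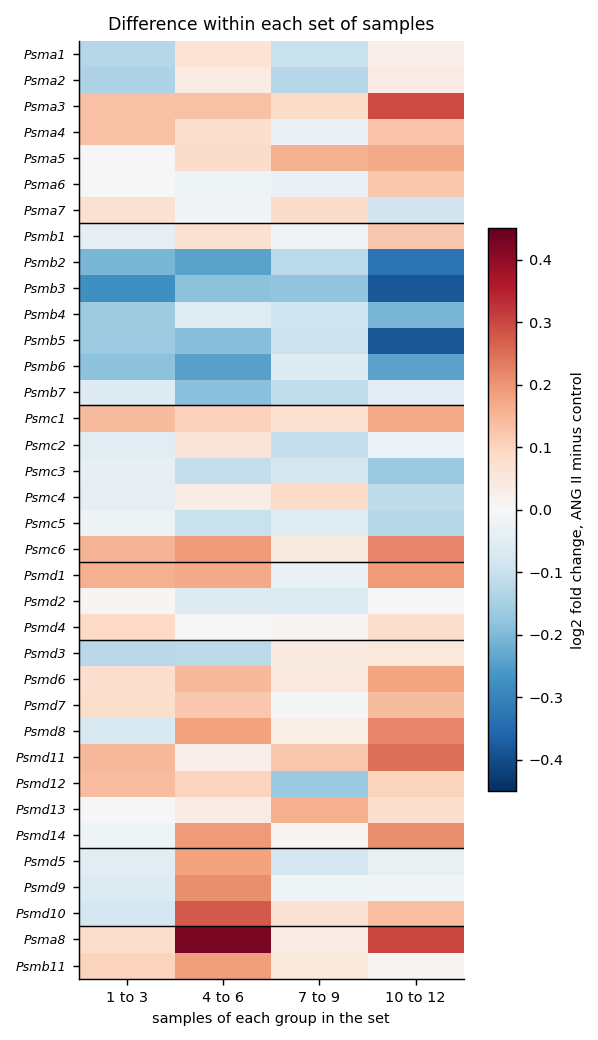
Log2 fold change of each gene, ANG II minus control, within each of the 4 sets of 3 samples a group (columns), on a colour scale from blue (lower in ANG II) to red (higher). The lines of Psmb2 to Psmb7 are blue in all 4 columns, and those of Psma3 and Psmc1 are red in all 4.

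Fewer of the 36 genes were called when any 1 set was left out, which also leaves fewer samples in each group. The loss of calls cannot be compared with the steadiness of the directions, since 1 group difference was added back to every set under the model. Without samples 4 to 6, 1 gene was called lower (Psmb3, adjusted p = 0.0494), where 11.6% of all genes were, and 3 were called higher (Psma3, Psmc1 and Psmd11), where 8.36% were. Without samples 10 to 12, 1 was called lower (Psmb2, adjusted p = 0.0451), where 9.44% of all genes were, and 1 higher (Psmc1, adjusted p = 0.0344), where 15.8% were. The median log2 fold change of the β ring was then -0.16 and -0.15. Without samples 1 to 3, 4 genes were called lower and 4 higher, against 10.5% and 19.2% of all genes. Without samples 7 to 9 the numbers were 4 and 6, against 9.29% and 17.8%. The differences before the adjustment were recovered from the spacing of the values for all 36 genes. They had the sign of the deposited ones in all 4 sets for every gene but Psmd1, Psmd7 and Psmd9. This agreement was therefore not particular to the β ring or to the called genes. Averaged over the sets, the differences before the adjustment were -17.0 FPKM for Psmb2, -18.7 FPKM for Psmb3, -11.2 FPKM for Psmb5 and 5.72 FPKM for Psma3. With set as a term, limma on them called Psmb2 (adjusted p = 0.0338) and Psmb3 (adjusted p = 0.0444) lower, not Psmb6 (adjusted p = 0.0584), and 5 genes higher, where it called 9.52% of all recovered genes lower and 16.3% higher.

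A ratio of ring sums within a sample does not change with a scaling of that whole sample. The authors' adjustment, as recovered here, was not of that kind, since its scale differed between genes within a set. In samples 1 to 3, for example, it was 0.614 for Psmb6 and 0.911 for Psma3. The ratios below are therefore not free of that adjustment. The summed FPKM of the β ring over that of the α ring was 1.46 to 1.72 (median 1.57) in control and 1.16 to 1.67 (median 1.42) in ANG II samples. Of the ANG II samples, 9 were below the lowest control sample, and ANG II sample 7 was the one above the control median. The set means were 1.58 and 1.40 for control and ANG II in samples 1 to 3, 1.6 and 1.41 in samples 4 to 6, 1.54 and 1.45 in samples 7 to 9 and 1.66 and 1.37 in samples 10 to 12. Against the 19S base and lid, the β ring had a median ratio of 0.647 in control and 0.570 in ANG II. The 19S base and lid over the α ring had medians of 2.44 and 2.45, with 6 of 12 ANG II samples on each side of the control median. These sums are descriptions over genes chosen with earlier results known and carry no test.

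The β sum and the sum of all values of a sample had some of their extreme samples in common, and no correlation between them was computed. The lowest control samples were not shared, being control sample 2 for the β sum (633.4 FPKM) and control sample 1 for the sum of all values (482319). Control sample 3 had the highest β sum (890.3 FPKM) and the highest sum of all values, ANG II sample 7 the highest of both in its group, and ANG II sample 12 the lowest β sum (577.1 FPKM) and the lowest sum of all values. As a share of that sum, a quantity chosen after the values were seen, the β ring held 0.131% to 0.157% (median 0.144%) in control and 0.125% to 0.154% (median 0.137%) in ANG II samples, with 10 of 12 ANG II samples below the control median. The α ring held medians of 0.0909% and 0.0969%, and the 19S base and lid 0.223% and 0.237%, with all 12 ANG II samples above the control median in both. These shares also carry the lower sum of all values, with medians of 508508 in control and 483546 in ANG II samples. The summed FPKM itself had medians of 463.2 and 475.1 in the α ring and of 1133 and 1161 in the 19S base and lid. The number of higher calls in the α ring and the 19S depended on the scaling and was 6 on the deposited values, 1 with median-ratio scaling (17.1% of all genes higher and 16% lower) and 2 with quantile normalization (13.7% higher and 20.8% lower). The 5 lower calls in the β ring stood under both.

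**Figure D4:**
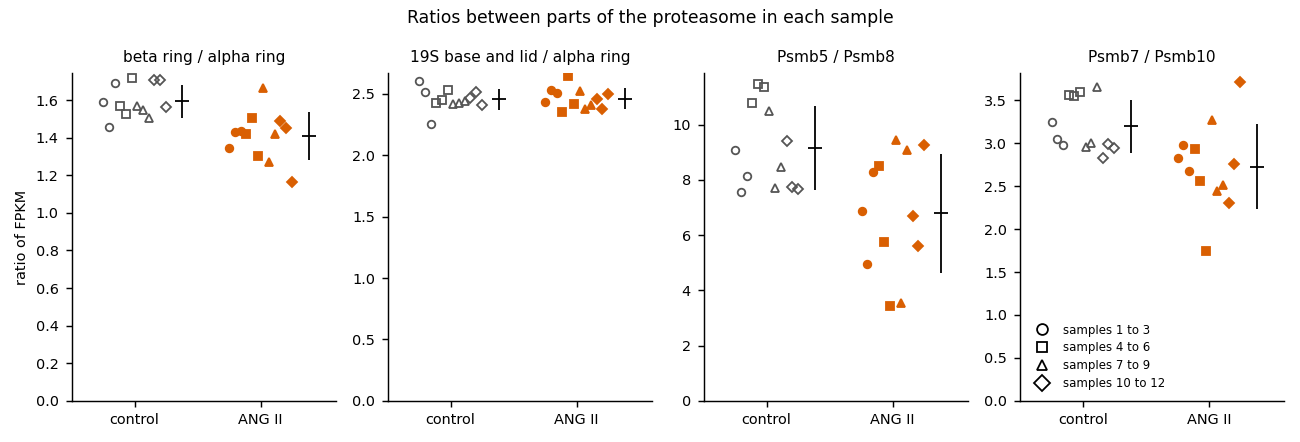
Ratios within each sample (vertical axis, from 0) of summed FPKM of the β ring to the α ring and of the 19S base and lid to the α ring, and of FPKM of Psmb5 to Psmb8 and Psmb7 to Psmb10, in 12 control (open grey) and 12 ANG II samples (orange); shapes give the sets and black marks the mean with its SD. The β to α ratio has medians of 1.57 and 1.42, and the 19S to α ratio has medians of 2.44 and 2.45.

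The constitutive proteolytic subunits were next set against the immunoproteasome subunits that replace them. Psmb8, Psmb9 and Psmb10 were not called (limma, adjusted p = 0.177, 0.755 and 0.116; 0 with an unadjusted p under 0.05 and 0 called by the Wilcoxon test). Psmb8 was at 6.247 to 12.21 FPKM in control and 5.429 to 18.02 FPKM in ANG II, Psmb9 at 5.706 to 11.94 and 4.101 to 15.80 FPKM, and Psmb10 at 30.63 to 42.85 and 28.62 to 50.07 FPKM. The ratio of Psmb5 to Psmb8 was 7.56 to 11.5 (median 8.78) in control and 3.43 to 9.45 (median 6.79) in ANG II samples, and 9 of 12 ANG II samples were below the control median. The difference of the mean log2 ratio was -0.47 (two-sided permutation test, p = 0.00324, adjusted over 3 ratios 0.00972). Psmb7 to Psmb10 fell from a median of 3.02 (2.83 to 3.66) to 2.72 (1.75 to 3.72), a difference of -0.24 (permutation test, p = 0.00676, adjusted 0.0101). Psmb6 to Psmb9 had a difference of -0.25 that did not pass (permutation test, p = 0.162). The differences were largest in samples 4 to 6. Within them the 3 differences were -0.94, -1.0 and -0.59 for Psmb5, Psmb6 and Psmb7, and without them they were -0.31 (exact permutation test, p = 0.0572), 0.00 (p = 0.992) and -0.13 (p = 0.129), so that neither call held. In samples 4 to 6, Psmb8, Psmb9 and Psmb10 had log2 fold changes of 0.75, 0.76 and 0.40 and the groups did not overlap, whereas in samples 10 to 12 they had -0.14, -0.52 and -0.02. The test of a difference between sets did not pass for any of the 3 (limma interaction, adjusted p = 0.446, 0.151 and 0.419). The macrophage markers had a median log2 fold change of 1.31 in samples 4 to 6, against 0.06, 1.04 and 0.12 in samples 1 to 3, 7 to 9 and 10 to 12, and the fibroblast markers 3.83 against 0.37, 0.35 and 0.31. The 3.83 is the value of Lum, whose lowest control value was 1.09 FPKM against a control median of 39.5 FPKM. The lowest control values of Col1a1, Col1a2 and Col3a1 were -59.5, -20.2 and -51.7 FPKM. These were raised to 0 before the logarithm, so that the size of the fibroblast value rests on adjusted values near or below 0. Dcn, Pdgfra and Postn had 1.40, 0.56 and 1.14 in samples 4 to 6. Of the macrophage and fibroblast markers, 3 of 7 and 5 of 7 were called for the interaction with set, and their part in the ratios was not tested.

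The spread between samples showed which subunits varied together. After the mean of each group in each set was removed, the Pearson r over 24 samples had a median of 0.75 between pairs of β ring genes (0.21 to 0.92 over 21 pairs), against 0.24 in the α ring, 0.21 within the 19S base and lid, 0.16 over all 561 pairs of the 34 genes without Psma8 and Psmb11, and 0.061 over all pairs of tested genes. Psmb2 and Psmb3 were the closest pair (r = 0.92), followed by Psmb3 with Psmb6 (0.90) and Psmb5 (0.90), and the lid gene Psmd3 was nearest to Psmb3 (0.89). Other genes outside the β ring were also nearest to 1 of its genes. These included Psma7 with Psmb4 (0.849), Psmd8 with Psmb5 (0.844) and Psmc4 with Psmb3 (0.834). Psmb1 was nearest to the α ring gene Psma1 (0.753). The variation together was thus not particular to the β ring. Psmc6 ran against them, with r = -0.86 to Psmb3 and -0.85 to Psmb2. The 5 genes called lower had a median r of 0.86 among themselves and of -0.58 with the 6 called higher outside the restricted tissues. All points share libraries, depth and scaling. With median-ratio scaling the medians were 0.83 in the β ring, 0.34 over the 34 genes and -0.24 between lower and higher genes.

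**Figure D5:**
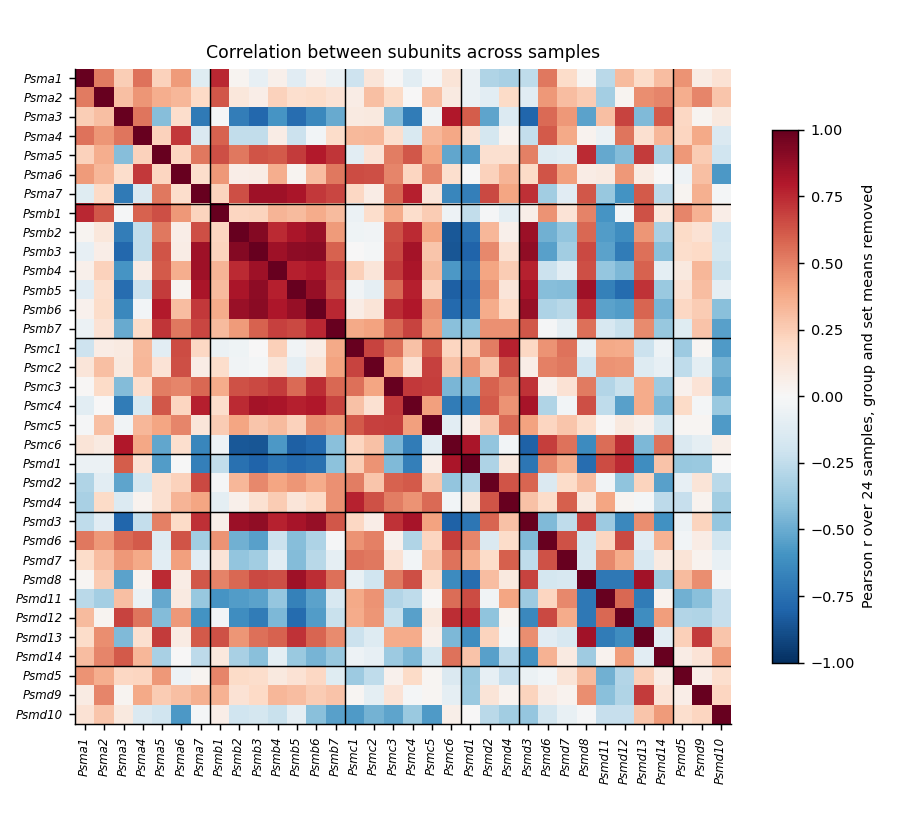
Pearson r between each pair of 34 genes over 24 samples after removal of the mean of each group in each set, from -1 (blue) to 1 (red), with lines between the groups of subunits. The β ring forms a red block with a median r of 0.75, in which Psmb1 is palest, and Psmc6 is blue against Psmb2, Psmb3 and Psmb5. Outside the block, Psma7, Psmc4, Psmd3 and Psmd8 are also red against Psmb3.

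The median levels differed between the parts of the particle, but the ranges of the parts overlapped. The control means were 35.0 to 90.2 FPKM in the α ring, 80.7 to 122.9 in the β ring, 52.0 to 134.1 for the ATPases and 28.4 to 80.8 in the lid. In control samples the means of the 34 genes ran from 4.66 FPKM for Psmd10 to 134.1 ± 7.99 FPKM (SD, n = 12) for Psmc3, with a median of 70.9 FPKM against 5.79 FPKM over all genes of the table. The β ring had the highest median, 109.8 FPKM, against 71.9 in the α ring, 67.3 for the ATPases and 52.3 in the lid. Psmb4 was next to Psmc3 at 122.9 ± 9.58 FPKM, then Psmb2, Psmb7, Psmb6 and Psmb3 at 113.0 to 109.7 FPKM, which did not differ beyond their spread. Of the 33 steps between neighbours in this order, 25 were smaller than the larger SD of the pair. The steps that exceeded it lay above Psmb4, below Psmd2, Psmd12, Psmd6, Psma5 and Psmd14 and among the chaperones. The order was nearly the same in ANG II, with a Spearman rho of 0.987 over the 34 means, although Psmb3 moved from place 6 to 9 and Psmb5 from 13 to 17. The coefficient of variation between samples was 2.93% to 12.5% in control and 3.96% to 15.4% in ANG II.

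Properties of the annotated transcripts differed between the groups of subunits. The length of a gene is the median over its annotated transcripts and not that of the RNA expressed in these samples. It was as low as 659 nt for Psmd2, so that the lengths are rough. The genes lie on 16 chromosomes, at most 6 of them on 1 chromosome (chromosome 11). The median transcript length was 899 nt in the β ring, 1157 nt in the α ring, 1614 nt for the ATPases and 1540 nt in the lid, and the median GC content 52.2%, 46.6%, 50.5% and 49%. Across the 34 genes, the log2 fold change had a Spearman rho of -0.49 with GC content, 0.23 with length and -0.57 with the mean level, where all genes tested had -0.13, 0.10 and -0.12. Among the 3551 tested genes as long as those of the β ring (766 to 1758 nt), 17.3% were called lower, and among the 599 of these with a mean of 32 to 128 FPKM 31.9% were, so that the background of lower calls was higher for short and abundant transcripts than the 12.6% of all genes. The part of length, GC content and level in the lower β ring values was not tested.

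Other genes of the pathway were counted from lists. The shares to set beside each count, here and in the next 2 paragraphs, are 20.9% of all genes tested higher and 12.6% lower. Of 5 activators and inhibitors of the core, 2 were lower and none higher. Psme1, a subunit of the 11S activator that caps the core without ubiquitin, was at 107.1 to 162.3 FPKM (median 148.9) in control and at 101.2 to 143.5 FPKM (median 108.2) in ANG II samples. All 12 ANG II samples were below the control median, and the log2 fold change was -0.32 ± 0.06 (limma, adjusted p = 0.00037), larger than that of any constitutive gene. Its partner Psme2 had -0.05 (adjusted p = 0.549), and the nuclear activator Psme3 had -0.10 (adjusted p = 0.0273). Of 6 factors of core assembly and import, 3 were lower and none higher. Psmg1 and Psmg2, which together hold the forming α ring, had log2 fold changes of -0.27 ± 0.07 (adjusted p = 0.00503) and -0.23 ± 0.06 (adjusted p = 0.00582), with medians of 17.66 and 14.64 FPKM and of 18.18 and 16.06 FPKM in control and ANG II. Akirin2, which brings proteasomes into the nucleus, had -0.13 ± 0.04 (adjusted p = 0.00952), while Pomp, needed for the β ring to form, had 0.04 (adjusted p = 0.493).

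The ubiquitin receptor Adrm1, a 19S subunit outside the symbol rule, had a log2 fold change of 0.02 (limma, adjusted p = 0.688). Of 11 factors that associate with the proteasome, 2 were higher (18.2%, against 20.9% of all genes) and none lower. The deubiquitinase Usp14, which trims chains on the 19S, had the larger value, 0.12 ± 0.04 (adjusted p = 0.0255). The shuttle factor Ubqln1 had 0.12 ± 0.04 (adjusted p = 0.0153). Of 8 genes of the Nfe2l1 axis, 2 were higher and none lower. Leaving out 1 sample at a time gave 0 to 4 higher, with 0 without ANG II sample 6 and 4 without ANG II sample 4 or control sample 6. Nfe2l1 itself was at 161.2 to 188.8 FPKM (median 175.1) in control and at 157.6 to 185.5 FPKM (median 176.1) in ANG II samples, so that the groups covered the same range, with a log2 fold change of 0.00 ± 0.03 (adjusted p = 0.945). Its relative Nfe2l2, the regulator of antioxidant genes, had 0.22 ± 0.07 (adjusted p = 0.0261), and Ngly1, the glycosidase that processes Nfe2l1, had 0.19 ± 0.07 (adjusted p = 0.0264).

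Upstream of the proteasome, 1 of 6 ubiquitin and ubiquitin-activating genes was higher, the polyubiquitin gene Ubb at medians of 612.0 and 702.0 FPKM (log2 fold change 0.18 ± 0.06, limma, adjusted p = 0.022). Of Vcp, the ATPase that extracts ubiquitinated proteins, and 7 of its cofactors, 3 of 8 were higher (37.5%, against 20.9% of all genes) and none lower. Ubxn4 had the largest value, 0.28 ± 0.06 (adjusted p = 0.000676), and Vcp itself had 0.08 ± 0.03 (adjusted p = 0.0451). Of the 9 genes of the COP9 signalosome, a complex related in structure to the lid that removes Nedd8 from ubiquitin ligases, Cops2 was higher (0.27 ± 0.07, adjusted p = 0.00519) and Cops8 lower (-0.16 ± 0.04, adjusted p = 0.00336). Over all 57 genes of these lists, the 3 immunoproteasome genes included, 9 were higher and 6 lower (15.8% and 10.5%), shares below those of all genes tested.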

How the data were processed

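Members and gene lists were chosen with earlier results of these data known. After oligo(dT) selection, RNA of left ventricles was sequenced, and FPKM values of 14912 genes in 24 samples were deposited by the authors. The labels name Bowtie2, HISAT and RSEM; versions, roles and the genome build are not given in the sources used here. The deposited values are not plain FPKM: values below 0 and exact ties within 4 sets of samples show an adjustment that no source names, so they were handled as adjusted values of another kind. The scale of each set was recovered from steps of 0.01 FPKM for 13440 of 14026 genes (95.8%), with medians of 0.816, 1.042, 1.391 and 1.082, and 96.7% of those at 1 FPKM or more kept their direction. Depth is unknown, so that no counting interval is given.

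Values below 0 were raised to 0. The 14026 genes with a mean of 0.1 FPKM or more were fitted as log2(FPKM + 1) with limma 3.58.1 in R 4.3.3 (intensity trend, no covariate) and adjusted by Benjamini-Hochberg over all of them; this scale understates changes of low genes. Scripts were tested on simulated data. Ratios were tested with 100000 resamples, two-sided. Other steps ran in Python 3.11.15 (numpy 2.4.6, scipy 1.17.1 and pandas 2.3.3). Positions, lengths and GC content came from GENCODE vM21, which held 99.8% of the symbols, and promoters from RefSeq. Full values are given for the 3 proteolytic subunits, for the 2 largest changes and the 1 smallest in each group of subunits, and for members against the direction of most. Of related lists, the largest call, calls against the list, the immunoproteasome and Nfe2l1 are named, and other genes were picked once their values were known. Alternatives were 0.1 in place of 1 in the logarithm, no filter or one at 1 FPKM, scaling by median ratios, quantile normalization, limma without the trend, the Wilcoxon rank-sum test, the replicate number as a block, set as a term, each sample or set left out, each set alone, and the recovered differences. Same-numbered samples of both groups were not taken as pairs, and the check of their deviations given below cannot decide on a pairing.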

Additional observations from a re-analysis of the deposited data

How the results depend on the processing

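With a pseudocount of 0.1, 1 proteasome gene (Psma8) and 1489 of all genes passed the call with an absolute log2 fold change over 0.5. With median-ratio scaling 2 proteasome and 4 related genes were higher. With quantile normalization 1928 of all genes were higher and 2921 lower, and 2 proteasome and 5 related genes were higher. With set as a term 3 proteasome genes were lower, and with the differences before the adjustment 2 were. Psma3, Psmb2 and Psmb3 kept their call in all 10 settings that used every sample, and Psmb6 lost its call only on the differences before the adjustment.

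With the replicate number as a block, 1586 of all genes, 4 proteasome genes and 3 related genes were higher and 3 proteasome genes lower. The deviations of same-numbered samples had r of -0.557 to -0.001 over 12 pairs, 0 of which were over 0.1, and 0 samples correlated best with their own number. Same-numbered samples share a set, and the adjustment, as modelled here, levelled the sets with the group difference kept. Deviations of the 2 groups within a set are then pushed apart, so that this check cannot decide on a pairing.

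Without samples 1 to 3, 4 proteasome genes were higher. Without samples 4 to 6, 1173 of all genes, 3 proteasome and 5 related genes were higher, 1 proteasome gene was lower and 552 genes passed the call with the fold change. Without samples 10 to 12, 1 proteasome gene was higher and 1 lower, and 3 related genes were higher. In samples 1 to 3 alone limma called 0 genes in either direction, the related genes included, and 0 with the fold change, where 1230 genes and 0 proteasome genes had an unadjusted p under 0.05. With samples 4 to 6 by themselves 3099 genes were higher and 705 lower, 1 proteasome gene was higher and 1 lower, 4 related genes were higher and 1 lower, and 2696 genes passed with the fold change. In samples 7 to 9 alone 304 genes were higher and 304 lower, 0 proteasome genes in either direction (0 at an unadjusted p under 0.05), 0 related genes higher and 1 lower, and 536 passed with the fold change, and Psmd1 turned to -0.03. In samples 10 to 12 alone 10 genes were higher and 11 lower, 0 proteasome and 0 related genes in either direction (3 proteasome genes at an unadjusted p under 0.05), and 21 passed with the fold change.

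The Psmb5 to Psmb8 difference was -0.309 without samples 4 to 6 and -0.313, -0.943, -0.369 and -0.244 in the 4 sets alone, and that of Psmb7 to Psmb10 was -0.127 and -0.125, -0.587, -0.226 and -0.029, where an exact permutation test of 3 against 3 samples cannot go below 0.1. The share of proteasome promoters with the GC box was 38.7% on the gene strand, against 23.4% of all windows. With median-ratio scaling, an alternative chosen after seeing the data, the median r was 0.338 over the 34 genes and 0.83 in the β ring. Leaving out each sample in turn gave 6 to 8 higher and 3 to 8 lower proteasome genes, 2375 to 3335 higher and 1596 to 1824 lower genes in all, and a median of the β ring of -0.208 to -0.156. The causes of these changes were not tested. The unknown number of fragments and the unnamed adjustment, which used the groups, limit what the p-values mean.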
